A study of Mus musculus with 4 samples.

Results

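Chromatin loops at 10 mouse genes of the Krüppel-like factor (KLF) family, Klf2, Klf3, Klf4, Klf5, Klf6, Klf9, Klf10, Klf12, Klf13 and Klf15, were examined in Hi-C loop lists of whole uterus. Hi-C joins and sequences DNA segments that lie near each other in the nucleus, and a loop is a pair of anchors that met more often than their surroundings. A loop belonged to a gene when an anchor overlapped the gene body extended by 10 kb on each side, on mm10. Of 59353 loops in the 4 lists together, 129 met this rule: 32 of 16387 and 25 of 9385 in wild-type vehicle replicates 2 and 3, 28 of 11752 with progesterone and 44 of 21829 for the knockout. No loop touched more than 1 of the 10 genes. All libraries came from C57BL/6J females over 10 weeks of age, ovariectomised and then rested for 10 to 14 days, with tissue taken 1 h after an injection. The wild-type vehicle group (2 libraries, replicates 2 and 3) and the ERα knockout group (1 library, genotype Ex3aERKO) received 100 ul of saline into the abdominal cavity. The wild-type progesterone group (1 library, replicate 2) received 1 mg of progesterone in sesame oil under the skin, so carrier and route differ from the vehicle group as well as the hormone. The sources used here do not state whether a library holds 1 animal or several, or whether the vehicle libraries came from separate animals.

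KLFs are transcription factors with zinc fingers at the carboxyl end that bind GC-rich and CACCC sequences, and the rest of each protein sets whether it activates or represses. In the uterus, KLF9 is a partner of the progesterone receptor, KLF15 restrains the estrogen-driven division of epithelial cells, and KLF5 is needed in the epithelium for embryo implantation. KLF4, KLF6 and KLF10 are products of genes that respond early to growth factors and hormones. KLF3 and KLF12 are repressors that recruit CtBP, KLF13 is a close relative of KLF9, and KLF2 keeps endothelial cells quiescent.

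The promoters of 8 of the 10 genes were found in a RefSeq table of GRCm38.p6, each as 300 bases from 250 before to 50 after a transcription start. Klf5 and Klf10 had no entry. The windows of Klf6 (chr13:5861239-5861538, plus strand), Klf13 (chr7:63938866-63939165, minus strand), Klf4 (chr4:55532426-55532725, minus strand) and Klf9 (chr19:23140976-23141275, plus strand) are shown because a loop anchor covered them in each of the 4 lists, and that of Klf2 (chr8:72318812-72319111, plus strand) because no loop belonged to that gene. Each is written from 5′ to 3′ on the strand of the gene, and capitals mark GC boxes, GGGCGG on either strand, with overlapping matches marked together.
Klf6: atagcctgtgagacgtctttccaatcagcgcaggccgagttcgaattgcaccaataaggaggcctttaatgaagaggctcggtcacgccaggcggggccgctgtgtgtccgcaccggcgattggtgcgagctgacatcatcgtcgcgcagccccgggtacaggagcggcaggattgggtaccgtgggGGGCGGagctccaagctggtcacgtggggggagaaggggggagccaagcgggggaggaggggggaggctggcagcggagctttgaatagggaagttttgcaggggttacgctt
Klf13: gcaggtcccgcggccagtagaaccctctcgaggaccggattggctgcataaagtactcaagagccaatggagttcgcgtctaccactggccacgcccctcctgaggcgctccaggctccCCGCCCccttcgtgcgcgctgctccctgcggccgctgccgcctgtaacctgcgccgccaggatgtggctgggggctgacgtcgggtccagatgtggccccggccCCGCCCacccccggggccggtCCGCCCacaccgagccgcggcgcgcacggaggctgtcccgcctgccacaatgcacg
Klf4: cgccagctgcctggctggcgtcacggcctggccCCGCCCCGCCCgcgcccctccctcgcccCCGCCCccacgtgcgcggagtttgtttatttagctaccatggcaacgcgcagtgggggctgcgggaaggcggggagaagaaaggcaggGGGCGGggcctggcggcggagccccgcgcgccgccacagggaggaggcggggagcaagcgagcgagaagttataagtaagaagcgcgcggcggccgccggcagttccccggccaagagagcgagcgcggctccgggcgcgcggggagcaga
Klf9: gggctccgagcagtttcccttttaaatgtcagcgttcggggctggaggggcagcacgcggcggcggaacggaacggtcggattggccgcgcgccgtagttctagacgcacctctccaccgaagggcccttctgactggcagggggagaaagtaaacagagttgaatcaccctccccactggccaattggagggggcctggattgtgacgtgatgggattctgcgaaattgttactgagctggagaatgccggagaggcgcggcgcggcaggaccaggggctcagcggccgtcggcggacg
Klf2: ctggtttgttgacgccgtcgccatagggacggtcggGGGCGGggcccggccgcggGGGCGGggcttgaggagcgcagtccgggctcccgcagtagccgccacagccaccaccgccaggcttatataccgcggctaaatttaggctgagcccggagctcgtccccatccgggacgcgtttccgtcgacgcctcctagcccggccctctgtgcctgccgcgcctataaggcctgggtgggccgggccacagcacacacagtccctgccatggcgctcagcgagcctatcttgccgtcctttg

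The windows in loop anchors differed in GC boxes, with 1 at Klf6, 3 at Klf13, 4 at Klf4 and 0 at Klf9, and the Klf2 window held 2. Of the 8 windows, 1 per KLF gene, 6 held a GC box, and those of Klf9 and Klf12 held 0. The share was 46.7% of all 21044 windows of 17273 protein-coding genes, where a gene can have several windows. CACCC on either strand was in 6 of 8 windows, against 59.8% of all windows. GGTCA, the estrogen response half-site, was in 3 of 8, against 39.5%, with 2 matches at Klf6 and 1 each at Klf3 and Klf12. TATAAA was in the Klf12 window alone among the 8, against 12.7% of all windows. These are matches of letters and no record of binding.

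The lists give positions and no contact counts, so depth and loop strength are unknown, and a loop missing from a list went uncalled, which does not show its absence. Progesterone and the knockout have 1 library each, so no test between conditions was made. The list of vehicle replicate 2 was 1.75 times as long as that of vehicle replicate 3, and the knockout list was 1.33 and 2.33 times as long as these. The ratios at the KLF genes were 1.28, 1.38 and 1.76. Per 10000 loops of a list, the KLF genes had 19.5 and 26.6 in vehicle replicates 2 and 3, 23.8 after progesterone and 20.2 in the knockout. The values after progesterone and in the knockout thus lay between those of the vehicle libraries. In a whole tissue, a contact made in more cells and one made more often in each cell cannot be told apart.

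Of the 10 genes, 8 had a loop in each of the 4 lists: Klf3, Klf4, Klf6, Klf9, Klf10, Klf12, Klf13 and Klf15. Over all 21627 protein-coding genes, 38.8% had a loop in each of the 4 lists. By list, 8, 8, 8 and 9 of the 10 genes had a loop, against 57.5%, 45.3%, 50.0% and 65.1% of all protein-coding genes in vehicle replicates 2 and 3, progesterone and the knockout. The median number of loops per gene was 3.5, 2.5, 2.5 and 3.5 for the KLF genes and 1, 0, 1 and 1 for all protein-coding genes. The genes were not drawn at random and were proposed with results of these lists known, so these figures describe them and no more. Their median length, 20.8 kb, was near the 17.3 kb of all genes.

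Among the other 16 genes of the wider Sp/KLF family, 8 had a loop in each of the 4 lists, against 38.8% of all protein-coding genes. Their median number of loops was 1, 0.5, 1 and 2.5 in vehicle replicates 2 and 3, progesterone and the knockout. The highest counts there were at Sp9, with 5, 3, 4 and 6 loops in vehicle replicates 2 and 3, progesterone and the knockout, and at Klf7, with 4, 1, 3 and 8. Klf14 and Sp4 had 0 in every list. Sp5 had 4 loops in vehicle replicate 2 and 0 in the other 3 lists.

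**Figure D1:**
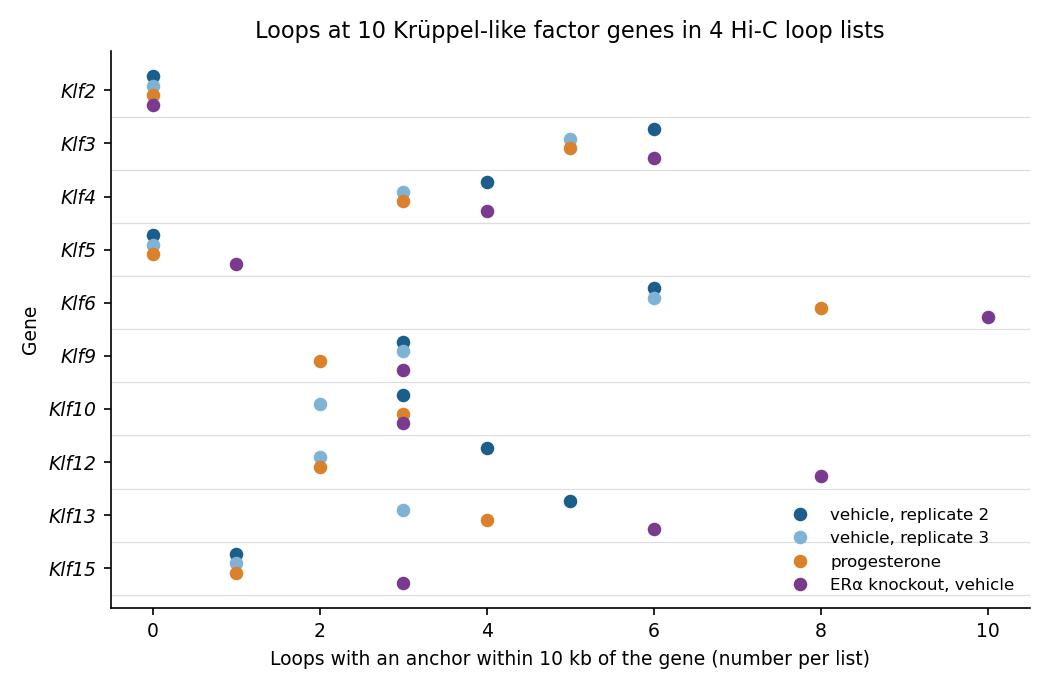
Number of loops with an anchor within 10 kb of each gene (horizontal axis), by gene (vertical axis), with 1 point for each of the 4 loop lists. Klf6 reached 10 loops in the knockout and 8 after progesterone, while Klf2 had 0 in every list and Klf5 had 1 in the knockout alone.

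Loops of the KLF genes were joined into 54 contacts, a contact being loops of 1 gene, from any list, with less than 10 kb between them at both anchors. A contact was matched in a list when that list held a loop as close to any of its loops, even if the anchor fell just outside the 10 kb window. Of the 54 contacts, 21 were matched in all 4 lists, 6 in 3, 8 in 2 and 19 in 1. The 21 contacts shared by all lists lay at 8 genes, with 5 each at Klf3 and Klf4, 3 at Klf6, 2 each at Klf9, Klf12 and Klf13, and 1 each at Klf10 and Klf15. Of the 19 seen in 1 list, 13 were in the knockout, the longest list, 3 in vehicle replicate 2, 2 after progesterone and 1 in vehicle replicate 3. The 13 were 29.5% of the KLF loops of the knockout (16.8 to 45.2), where 37.0% of all loops were in that list alone. For vehicle replicates 2 and 3 and progesterone the shares were 9.38%, 4% and 7.14%, against 16.8%, 5.75% and 8.53% of all loops.

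**Figure D2:**
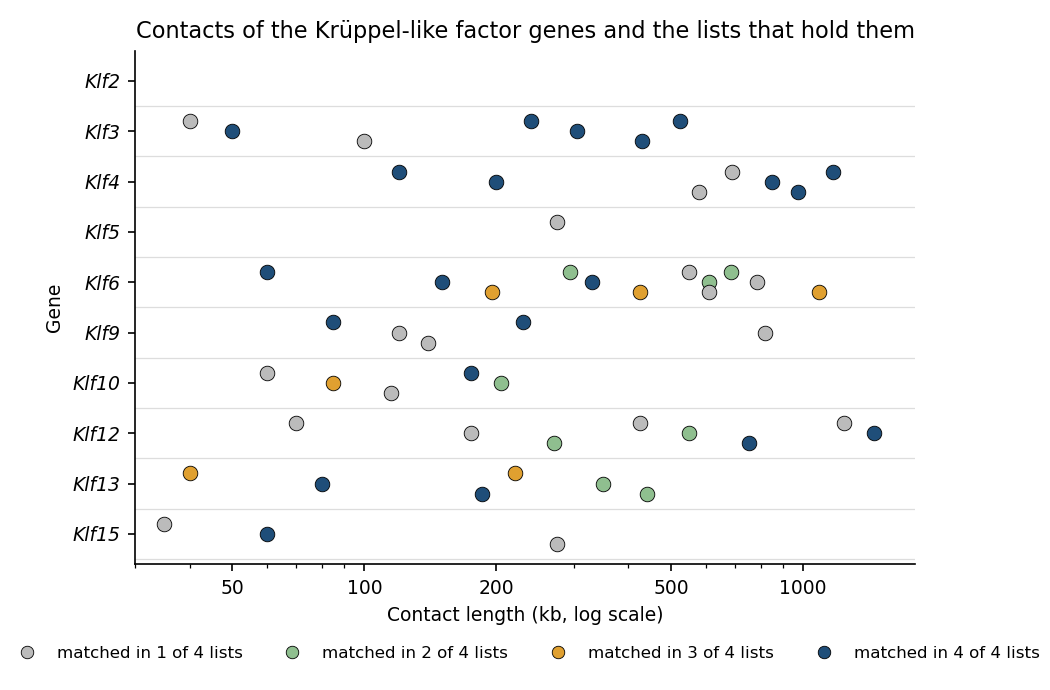
Length of the longest loop in kb (horizontal axis, log scale) of each of the 54 contacts, by gene (vertical axis), coloured by the number of lists in which the contact was matched; points are spread vertically within a gene for legibility. Contacts in all 4 lists run from 50 kb at Klf3 to 1450 kb at Klf12.

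Loop by loop, 18 of the 32 KLF loops of vehicle replicate 2 were matched in all 4 lists (56.2%, exact binomial 95% interval 37.7 to 73.6), against 39.0% of all loops of that list. The shares were 76.0% (54.9 to 90.6) against 69.4% for vehicle replicate 3, 64.3% (44.1 to 81.4) against 55.0% with progesterone, and 40.9% (26.3 to 56.8) against 29.1% in the knockout. In each list the share over all loops fell inside the interval of the KLF loops. Intervals cover counting error only and treat loops as independent. Loops of 1 gene often share an anchor, so the intervals can be too narrow.

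**Figure D3:**
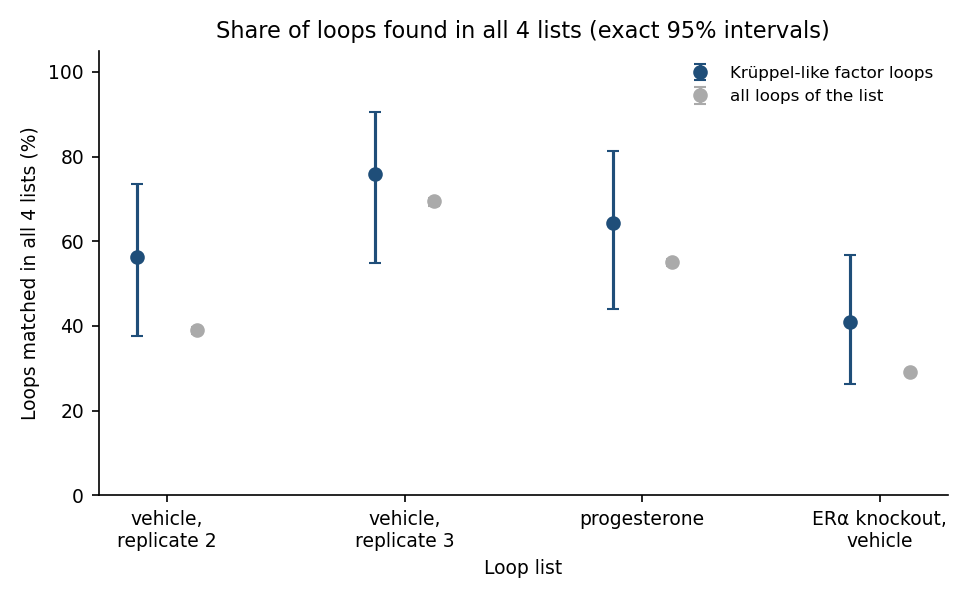
Share of loops matched in all 4 lists in percent (vertical axis), for the KLF loops and for all loops of each list (horizontal axis); bars are exact binomial 95% intervals. The KLF shares run from 40.9% to 76.0%, and each interval takes in the share over all loops.

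The far ends of most KLF loops overlapped no other protein-coding gene, but some of these held a long noncoding RNA (lncRNA) gene. In this paragraph, loops with both anchors at the same gene stayed in the totals but counted in none of the far anchor classes. At the KLF genes these were 2, 0, 1 and 3 loops in vehicle replicates 2 and 3, progesterone and the knockout. No other protein-coding gene was at the far anchor in 23 of 32 loops of vehicle replicate 2 (71.9%, 53.3 to 86.3) and 20 of 25 of vehicle replicate 3 (80.0%, 59.3 to 93.2). The counts were 20 of 28 with progesterone (71.4%, 51.3 to 86.8) and 30 of 44 in the knockout (68.2%, 52.4 to 81.4). These intervals also treat loops of 1 gene as independent, and the counts differed by gene. At Klf13 they were 1 of 5, 1 of 3, 1 of 4 and 1 of 6 loops in the same order of lists. At Klf12 they were 2 of 4, 1 of 2, 1 of 2 and 4 of 8. At Klf6 they were 6 of 6, 6 of 6, 7 of 8 and 8 of 10, and at Klf4 all loops. Over all pairs of a protein-coding gene and a loop at it, the shares were 32.2%, 33.3%, 32.6% and 26.8%. In those pairs, regions dense in genes count many times, as a loop there is paired with each gene. A lncRNA gene was at the far anchor of 9 of 32 (28.1%, 13.7 to 46.7), 8 of 25 (32.0%, 14.9 to 53.5), 9 of 28 (32.1%, 15.9 to 52.4) and 11 of 44 (25%, 13.2 to 40.3) loops in the same order, against 18.2%, 19.5%, 18.8% and 17.9% of the pairs, each inside its interval. Far anchors with neither kind of gene made up 43.8% (26.4 to 62.3), 48.0% (27.8 to 68.7), 39.3% (21.5 to 59.4) and 45.5% (30.4 to 61.2) of the KLF loops. The shares of the pairs were 23.1%, 23.6%, 23.4% and 19.2%, of which only the one for progesterone fell inside its interval. Median loop lengths were 212.5 kb, 195 kb, 222.5 kb and 267.5 kb for the KLF genes in the same order, and 185, 200, 190 and 150 kb for all loops.

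Klf9 (chromosome 19, 23141226 to 23168129), the gene of the progesterone receptor partner, had 3, 3, 2 and 3 loops in vehicle replicates 2 and 3, progesterone and the knockout. Both contacts that all lists share run upstream. The longer joins Klf9 with Trpm3, a cation channel gene, at 22910001 to 22925000, over 225 to 230 kb. Its near anchor was at 23145001 to 23150000 in 3 lists, inside the gene and past the start at 23141226, and in vehicle replicate 3 a 10 kb bin held both. The shorter spans 80 to 85 kb, from 23055001 to 23060000, within the long noncoding RNA gene C330002G04Rik. After progesterone these were the only Klf9 loops. Each vehicle list had 1 more, of 140 kb in replicate 2 and 120 kb in replicate 3, which matched each other when 25 kb instead of 10 kb was allowed. The knockout had a downstream loop of 820 kb, called with 10 kb anchors and matched in no other list. It was the only knockout loop with the Klf9 start in an anchor. In the knockout and vehicle replicate 3, the near anchor of the shorter shared contact lay 1.2 kb outside the gene.

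Klf13 (chromosome 7, 63886351 to 63938915) had 5, 3, 4 and 6 loops. Every one of them had the Klf13 start in an anchor. Loops of 175 to 185 kb to Otud7a, a deubiquitinase gene, and of 80 kb to 63855001 to 63860000 were in all 4 lists. A loop of 40 kb within the gene and one of 220 kb to Trpm1, a cation channel gene, were in 3 lists and not in vehicle replicate 3, the shortest list. Farther upstream, 350 kb loops to Mtmr10 were in vehicle replicate 3 and the knockout, and loops of 435 and 440 kb to Fan1, a DNA repair nuclease gene, were in vehicle replicate 2 and the knockout. The knockout list thus held all 6 contacts of this gene, and none of them was in the knockout alone.

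Klf15 (chromosome 6, 90461043 to 90491803), the gene of the factor that restrains epithelial division, had 1, 1, 1 and 3 loops. The loop in all 4 lists spans 60 kb, from 90450001 to 90460000 to 90510001 to 90520000. Its anchors lie on either side of the gene, the nearer one 1.04 kb from it, so the gene sits inside the loop and at neither anchor; without the 10 kb extension Klf15 had 0 loops in the wild-type lists. The knockout added a 35 kb loop, whose near anchor lay inside the gene and which matched the 60 kb loop when 25 kb was allowed, and a 275 kb loop to Iqsec1 called with 25 kb anchors. That last loop was the only one with the listed Klf15 start in an anchor.

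Klf6 (chromosome 13, 5861489 to 5870393), an early response gene, had more loops than any other of the 10 genes in 3 lists, and as many as Klf3 in vehicle replicate 2. It had 6 in each vehicle list, 8 with progesterone and 10 in the knockout. Among all protein-coding genes, 3.01%, 0.749%, 0.462% and 0.902% had at least as many in the same lists. The Klf6 start was in an anchor of 5 of 6, 6 of 6, 8 of 8 and 10 of 10 loops, and most of these used the bin 5860001 to 5865000, which holds the promoter printed above.

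The Klf6 contacts in all 4 lists were an upstream pair of 60 kb and 150 kb and a downstream one of 330 kb, ending at 5800001 to 5805000, 5710001 to 5720000 and 6190001 to 6200000. None of these ends overlapped a protein-coding gene. A 1090 kb loop to 4770001 to 4775000 was in vehicle replicate 2, progesterone and the knockout, and no protein-coding gene lay between its anchors. A loop of 420 to 425 kb upstream was in the 3 wild-type lists and not in the knockout. A downstream loop of 195 kb was in both vehicle lists and the knockout and not after progesterone. The only protein-coding genes at far ends were Pitrm1, a mitochondrial peptidase gene, at 675 kb after progesterone and 685 kb in the knockout, and Pfkp, the platelet phosphofructokinase gene, at 785 kb in the knockout alone.

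**Figure D4:**
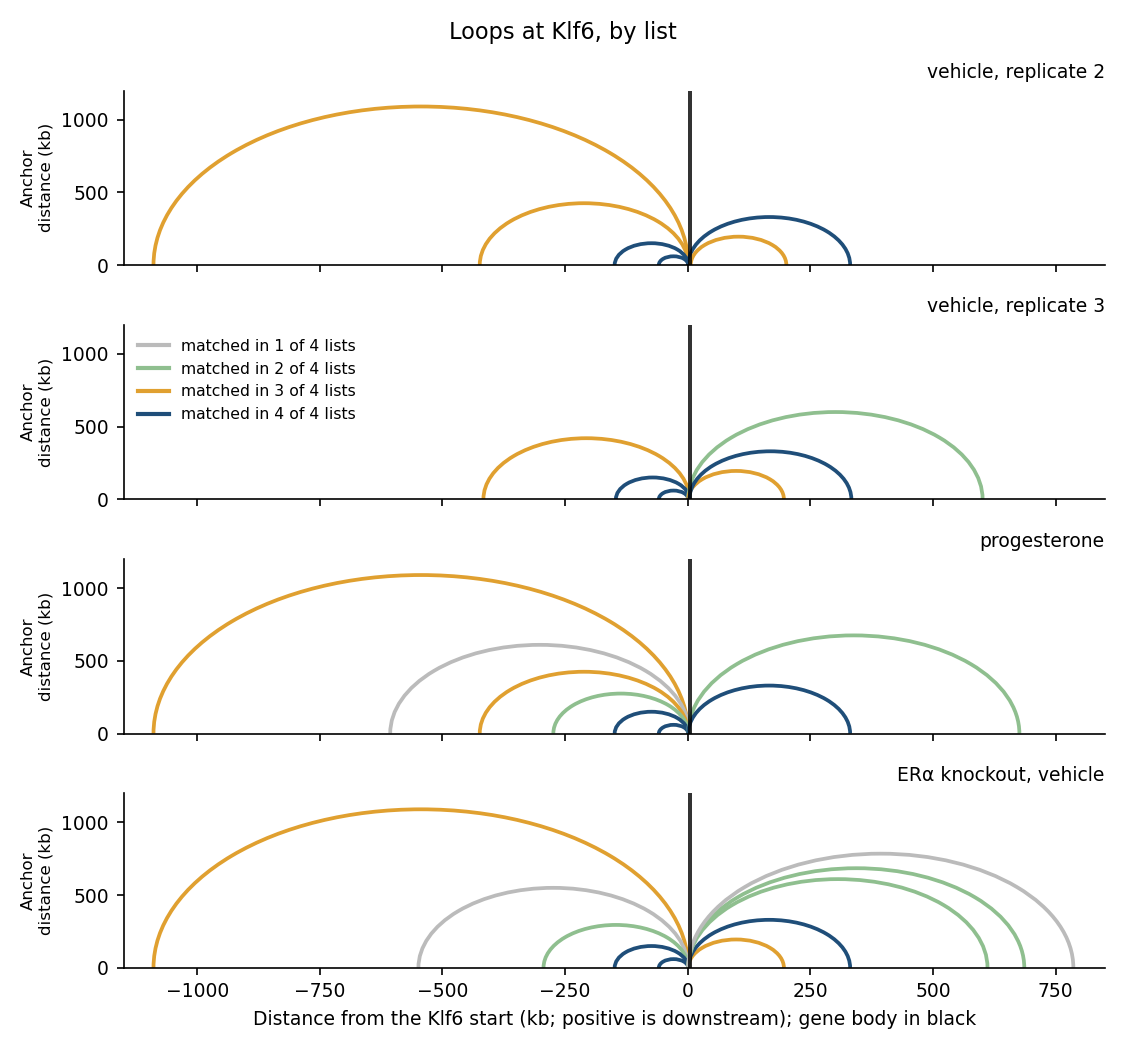
Loops at Klf6 in each of the 4 lists, drawn as arcs between anchor centres; the horizontal axis is the distance from the Klf6 start in kb, the height of an arc is the distance between its anchors in kb, and colours give the number of lists that match the loop. The 60, 150 and 330 kb arcs recur in every panel, and the other arcs differ between lists, vehicle replicates included.

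The 3 progesterone loops of Klf6 that neither vehicle list matched were of 610 kb, 275 kb and 675 kb. They were called with 10 kb, 25 kb and 25 kb anchors, so none was at the finest size. The 275 and 675 kb loops matched knockout loops of 295 and 685 kb called with 5 kb anchors, which leaves the 610 kb loop in the progesterone list alone. The knockout had 2 Klf6 loops matched in no other list, of 550 kb and 785 kb.

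Klf10 (chromosome 15, 38291464 to 38300711), an early gene of transforming growth factor β response, had 3, 2, 3 and 3 loops. All of them ran to higher coordinates. A loop of 170 to 175 kb to 38470001 to 38475000 was in all 4 lists. A loop of 80 to 85 kb was in both vehicle lists and the knockout. The progesterone list had a 60 kb loop called with 10 kb anchors, which matched these when 25 kb was allowed. A 205 kb loop between Azin1, the antizyme inhibitor gene, and a bin 6.46 kb from Klf10 was in vehicle replicate 2 and progesterone. With 25 kb allowed, the 170 to 175 kb loops of vehicle replicate 3 and the knockout matched it, but in those lists Azin1 was at the far anchor of 0 Klf10 loops. A 115 kb loop was in the knockout alone.

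Klf4 (chromosome 4, 55527137 to 55532475), an early response gene also known as a pluripotency factor gene, had 4, 3, 3 and 4 loops, and all its contacts ran upstream. Loops of 120 kb to 55650001 to 55655000 and of 190 to 200 kb to 55720001 to 55735000 left from the bin with the Klf4 start in all 4 lists, and no protein-coding gene lay in between or at the far end. Longer loops of 845 to 1175 kb left from a bin past the 3′ end of the gene. In every list those loops ended at 56360001, 56490001 and 56685001, but the near anchor moved between the bins 55510001 to 55515000 and 55515001 to 55520000, which lie 12.1 kb and 7.14 kb from the gene. Each list therefore counts just 1 of these 3 loops under the 10 kb rule. With 25 kb on each side, Klf4 had 6, 6, 5 and 7 loops.

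A further far end at 56220001 was joined to the Klf4 start in vehicle replicate 2, by a 690 kb loop with 10 kb anchors. In vehicle replicate 3 and the knockout it was joined by 710 kb loops to the bin 12.1 kb from the gene, and in the progesterone list it was not found from either bin. The knockout had a 580 kb loop from the Klf4 start that no other list matched.

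Klf3 (chromosome 5, 64803521 to 64832901), a repressor gene, had 6, 5, 5 and 6 loops. Of its 7 contacts, 5 were in all 4 lists, as at Klf4: upstream ones of 525 kb to Tbc1d1, a Rab GTPase-activating protein gene, of 425 to 430 kb, of 305 kb and of 230 to 240 kb, and a downstream one of 45 to 50 kb. Their near anchors lay between 64800001 and 64820000, and those of the 305 to 525 kb contacts at 64810001 to 64820000, inside the gene and past its start at 64803521. The start was in an anchor of 0, 1, 1 and 2 loops. Outside this set, vehicle replicate 2 alone had a 40 kb loop in the upstream flank and the knockout alone a 100 kb loop from the gene start.

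Klf12 (chromosome 14, 99866181 to 100285891), a repressor gene and the longest of the 10 at 420 kb, had 4, 2, 2 and 8 loops. Of all protein-coding genes, 10.7%, 21.4%, 26.2% and 2.35% had at least as many in the respective lists. A loop of 750 to 755 kb to Pibf1, the progesterone immunomodulatory binding factor gene, at 99140001 to 99145000, was in all 4 lists. A loop of 1430 to 1450 kb to 101370001 to 101390000 was the longest at any KLF gene and was also found in each list. By direct matching, the vehicle replicate 2 and progesterone loops of this contact were not matched in the knockout, since the inner anchors were exactly 10 kb apart, and the vehicle replicate 3 loop linked them.

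The knockout had 4 Klf12 contacts of its own, of 70, 175, 425 and 1240 kb. The 70, 175 and 1240 kb contacts had an anchor at the outer end of the gene, between 100280001 and 100290000, where vehicle replicate 2 and the knockout also shared an inner loop of 260 to 270 kb. As Klf12 is on the minus strand, that outer end is the 5′ end of the gene body, and anchors of vehicle replicate 2 and the knockout covered it. The RefSeq start used here lies 136 kb inside that end, and no Klf12 anchor covered this inner start in any list. The 1240 kb loop ran to Mzt1 and Bora, genes of mitotic spindle regulation.

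**Figure D5:**
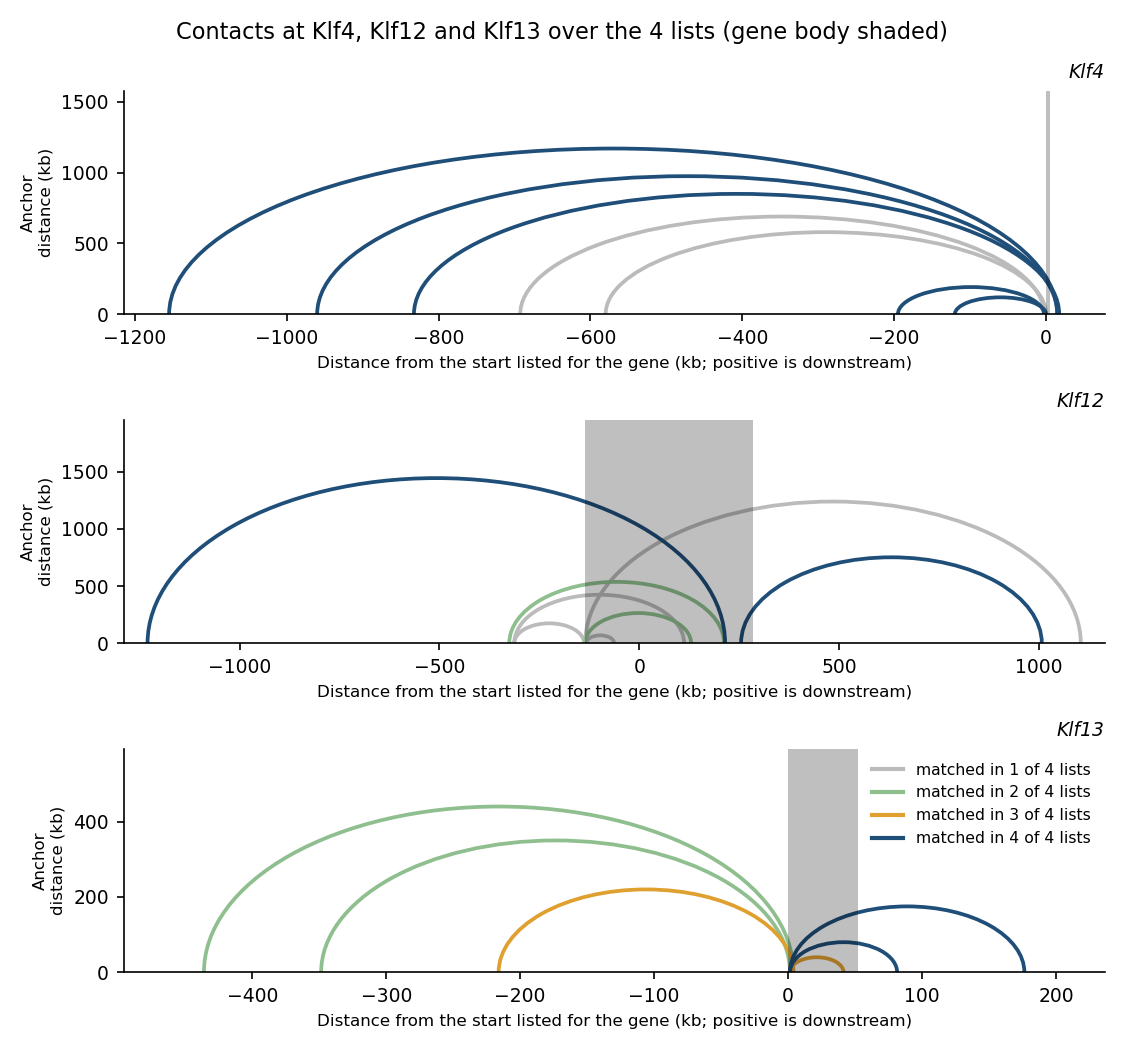
Contacts at Klf4, Klf12 and Klf13 over the 4 lists, drawn as arcs between anchor centres; the horizontal axis is the distance in kb from the start listed for the gene, the height is the distance between anchors in kb, shading is the gene body, and colours give the number of lists. Klf4 contacts all run upstream, up to 1170 kb; at Klf12 the contacts in all 4 lists begin inside the gene; at Klf13 every contact has an end at the gene start.

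Klf5 (chromosome 14, 99298691 to 99313412), the implantation factor gene, lies between Pibf1 and Klf12 and had 0, 0, 0 and 1 loops. In the 3 wild-type lists the nearest anchor was 154 kb away, and the single loop over the gene was the one that joins Pibf1 to Klf12. The knockout loop spans 275 kb, from 99300001 to 99325000 to 99575001 to 99600000, and was called with 25 kb anchors, the coarsest size.

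Klf2 (chromosome 8, 72319062 to 72321654), the endothelial gene and the shortest at 2.59 kb, had 0 loops in every list. The nearest anchor lay 13.3 and 18.3 kb away in vehicle replicates 2 and 3, 28.3 kb with progesterone and 38.3 kb in the knockout. The gene was instead enclosed, by 5, 3, 2 and 7 loops, of which the shortest spanned 50, 70, 85 and 100 kb. With 25 kb on each side, both vehicle lists had 1 loop at Klf2, the 50 kb and the 70 kb one, and progesterone and the knockout had 0. Under the 10 kb matching rule, the 70 kb loop was nevertheless matched in the progesterone list, by a loop with anchors outside that window. It was not matched in the knockout, and the 50 kb loop was matched in neither of these lists.

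The progesterone list was set against the vehicle lists to see which KLF loops differ 1 h after the hormone. Of the 22 KLF loops of vehicle replicate 2 that were also in vehicle replicate 3, 2 were not called after progesterone (9.09%, 1.12 to 29.2), against 15.1% of all such loops. They were the 195 kb loop of Klf6 and the 85 kb loop of Klf10. Neither vehicle list held 4 of the 28 loops called with progesterone (14.3%, 4.03 to 32.7), against 14.8% of all progesterone loops, and these were the 3 of Klf6 and the 60 kb loop of Klf10. As described, the 60 kb and 85 kb loops of Klf10 matched each other when 25 kb was allowed, so this loss and this gain can be 1 shifted call. The KLF shares were close to those of all loops, and they depended on the vehicle libraries used. Without vehicle replicate 2, 5 of 25 vehicle loops were not called after progesterone (against 21.6% of all loops), and 8 of 28 progesterone loops were not in the vehicle list (28.6%, against 37.4%). Without vehicle replicate 3, these were 8 of 32 (25%, against 41.8%) and 4 of 28 (14.3%, against 19.0%).

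The knockout list was set against the vehicle lists to see which KLF loops differ without ERα. The knockout list lacked 2 of those 22 vehicle loops (9.09%, 1.12 to 29.2), against 10.0% of all such loops. They were the 425 kb loop of Klf6 and the 1450 kb loop of Klf12, and the second had a knockout loop exactly 10 kb away, as described. Without vehicle replicate 3, 6 of 32 vehicle loops were not called in the knockout (18.8%, 7.21 to 36.4, against 25.7% of all loops), and without vehicle replicate 2, 2 of 25 (8%, 0.984 to 26.0, against 15.0%). Neither vehicle list held 15 of the 44 loops called in the knockout (34.1%, 20.5 to 49.9), against 40.6% of all knockout loops. These 15 lay at 8 genes, with 4 each at Klf6 and Klf12, 2 at Klf15 and 1 each at Klf3, Klf4, Klf5, Klf9 and Klf10. The part of list length in these counts was not tested.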

How the data were processed

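Hi-C of 4 uterus libraries used an Arima kit, as the labels' protocols state; no estradiol sample was analysed here. The authors deposited, for each library, a list of 6 columns without header giving the positions of both anchors of every loop, on mm10 and with Juicer 1.5.6 per the submitters' processing notes. Neither the loop caller and its thresholds nor the read depth is stated by the sources used here. Anchors were 5, 10 or 25 kb wide, and starts were rewritten to count from 1.

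Positions of 21627 protein-coding genes on the autosomes and X were read from RefSeq's GRCm38.p6 annotation, which shares its coordinates with mm10. A loop was matched in another list when a loop there had less than 10 kb between the anchors at both ends, and length is the distance between anchor starts. The matching step was run on the list of vehicle replicate 2 with some loops shifted by less than the allowed gap. All of these matched, which the rule makes certain, and false matches were not checked. The KLF genes, the Sp/KLF list and the rules were chosen with earlier results of these data known.

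Partner genes named were, for each gene, up to 3 with the most loops and any in all 4 lists; loops named were, for each gene, up to 2 in all 4 lists and up to 2 in each class that differs from the vehicle lists. Fan1, the noncoding RNA genes and all further loops described were picked with their values in view. The comparison of protein sequences was not run. Alternatives were the extension of genes, the gap, the anchor size and each vehicle library. Computation used Python 3.11.15, numpy 2.4.6, pandas 2.3.3, scipy 1.17.1 and matplotlib 3.10.9.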

Additional observations from a re-analysis of the deposited data

How the results depend on the processing

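In this paragraph 4 values in a row are for vehicle replicates 2 and 3, progesterone and the knockout. With 10 kb anchors alone, KLF loops numbered 6, 11, 7 and 7, and 5 genes had a loop in vehicle replicate 2 and 5 in the knockout. Loops of vehicle replicate 2 in all 4 lists then numbered 2, vehicle loops not called after progesterone 0 and in the knockout 1, and loops in neither vehicle list 2 after progesterone and 3 in the knockout. With 5 kb anchors alone, KLF loops numbered 12 in vehicle replicate 3 and 18 after progesterone, 10 loops of vehicle replicate 2 were in all 4 lists, 0 vehicle loops were missing from the knockout, and 0 progesterone loops were in neither vehicle list. Median lengths were then 195 and 177.5 kb in vehicle replicates 2 and 3 and 190 kb in the knockout. With 0 kb added to anchors, 9 loops of vehicle replicate 2 were in all 4 lists and 1 vehicle loop was missing from the knockout. Leaving out either vehicle library gave 5 to 8 vehicle loops not called after progesterone, 2 to 6 not called in the knockout and 4 to 8 progesterone loops in neither vehicle list. Median lengths in vehicle replicates 2 and 3 were 225 and 212.5 kb for gene bodies not extended and 230 and 230 kb for an extension of 25 kb. The other 53 counts and medians stayed within 1.5 times the reported count or within 12.4 kb, the SD of the vehicle medians. For single genes, 89 values stayed within these limits and 23 moved further, 15 of them when the listed gene start alone had to lie in an anchor. That gave Klf12 0 loops in every list, counted at its inner start and not at the 5′ end of the gene body. Fewer loops enter when 1 anchor size is used; the cause of the other shifts was not tested. Depth is unknown, so an uncalled loop sets no limit.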

Other observations

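Several KLF contacts end in long noncoding RNA genes, chosen here after the positions were seen. As given above, in each list the share of such far ends over all gene and loop pairs fell inside the interval of the KLF loops. The 60 kb and 150 kb contacts of Klf6, in all 4 lists, end over Gm35413 and Gm35330. Contacts of Klf3 of 305 kb and of 425 to 430 kb end over Gm52815 and Gm43837 in all 4 lists, and the 170 to 175 kb contact of Klf10 ends over Gm41308 in all 4. No microRNA gene was at a far anchor in any list. The share over all gene and loop pairs is not given here, so this does not set the KLF genes apart. No transcript levels were measured here.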
